A study of Danio rerio with 12 samples.

Results

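Loss of desmin in trunk muscle was examined in 6 of the 12 libraries of a zebrafish RNA-seq series. The members were chosen by the tissue, genotype and replicate number in the sample labels: 3 libraries from the trunk muscle of desma-/-;desmb-/- double mutants (mutant) and 3 from the trunk muscle of wild type (WT) fish. All fish were of the AB strain and 5 months old, and the WT fish came from the line in which the double mutant had been made. The other 6 libraries, from extraocular muscle, enter only where values are set side by side. The labels call the cells trunk muscle myofibers, but RNA was taken from dissected tissue, so each stranded, poly-A selected library could also hold RNA of the other cells in the piece. The labels do not say whether a library came from 1 fish, from a pool or from separate dissections, so the p-values measure the spread between these libraries, which may be technical.

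Desmin is the intermediate filament protein of muscle fibres. Its filaments surround the Z-discs, where thin filaments of neighbouring sarcomeres are anchored, and link myofibrils to each other, to the costameres of the cell membrane, to nuclei and to mitochondria. In people, mutations of the desmin gene cause myopathies in which fibres weaken and misfolded protein can accumulate. Zebrafish carry a pair of desmin genes, desma and desmb. The comparison asks which transcripts differ in trunk muscle at this age when both genes are mutated.

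The 6 libraries held 74396894 to 91115096 reads assigned to genes on the gene's strand, and 19402 to 24170 genes were detected per library. Levels are given as CPM (counts-per-million), the read count of a gene relative to its library total after normalisation with the trimmed mean of M-values (TMM), in the order of libraries 1, 2 and 3. The TMM factors were 0.7888, 0.6608 and 1.122 in mutant and 1.21, 1.212 and 1.166 in WT libraries. On this scale all genes tested summed to 1270000, 1510000 and 891000 CPM in mutant and 826000, 825000 and 858000 CPM in WT libraries. Summed levels of gene lists carry this difference in scale. All 13 muscle fibre markers were detected in every library, with a lowest level of 0.598 CPM for tnnt3a. They made up 18.1, 15.9 and 14.1% of the reads in mutant libraries, against 14.9, 12.9 and 13.3% in WT libraries, so both groups held skeletal muscle; these markers do not tell trunk from extraocular muscle. In the differential tests an adjusted p under 0.05 from edgeR's quasi-likelihood test with Benjamini-Hochberg adjustment was the threshold, and fold changes are log2 ratios of mutant over WT with their standard error (SE).

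Mutant library 2 stood apart from the other 5. On the first principal component it lay at 82.75, against -22.95 and 2.13 for the other mutant libraries and -29.49 to -13.58 for the WT libraries. Its Spearman correlation across genes was 0.8982 and 0.8759 with mutant libraries 1 and 3, whereas these correlated with each other at 0.9602 and the WT pairs at 0.9706 to 0.9811. Mutant libraries 1 and 3 correlated with the WT libraries at 0.9514 to 0.9613, about as closely as with each other. On the second principal component they lay apart, at -15.67 and 42.97. Transcripts of several giant genes were low in mutant library 2, such as huwe1, which encodes a ubiquitin ligase, at 29.6, 5.41 and 37.7 CPM in mutant libraries and 37.5, 36.8 and 42.1 CPM in WT libraries. The same held for hspg2, the basement membrane proteoglycan perlecan, at 56.8, 4.91 and 60.9 CPM in mutant and 83.5, 72.8 and 69.9 CPM in WT libraries. Short ribosomal protein transcripts and the nuclear RNA malat1 were high in it. The level of rps29 was 242, 742 and 184 CPM in mutant and 223, 210 and 188 CPM in WT libraries, and that of malat1 was 840, 5870 and 1170 CPM in mutant and 687, 809 and 807 CPM in WT libraries. These 4 genes were chosen after their values were seen. The part this library played was measured by repeating the fit without it, on 2 mutant and 3 WT libraries, and its values are given beside the lists and most of the genes.

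**Figure D1:**
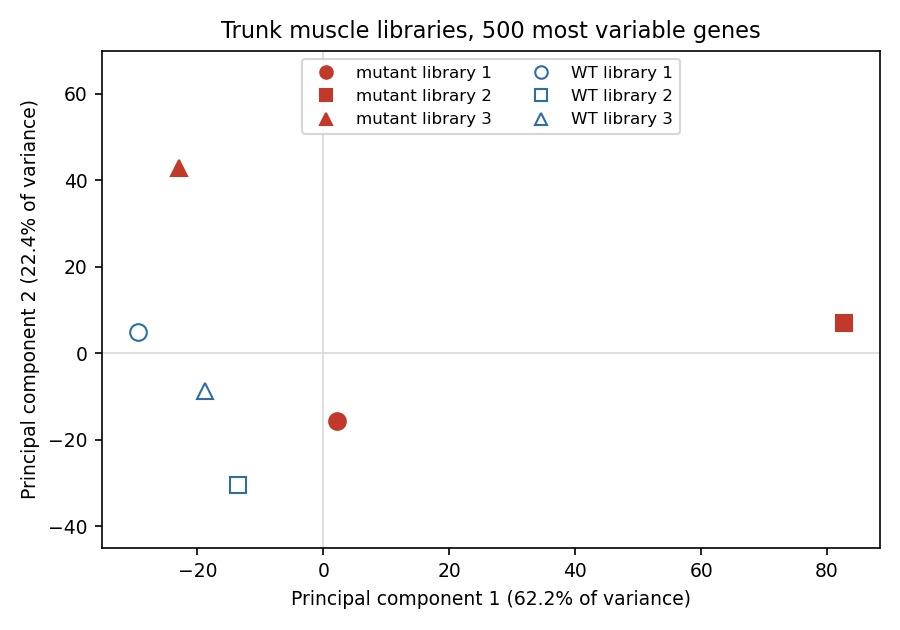
Principal component 1 (horizontal axis) and 2 (vertical axis) of the 6 trunk libraries over the 500 most variable genes, with the percentage of variance in the axis labels. Filled red symbols are mutant and open blue symbols WT libraries, and mutant library 2 lies at 82.75 on the first component, apart from the other 5 at -29.49 to 2.13.

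The targeted genes were examined first. Transcripts of desma stood at 50.8, 30.9 and 30.2 CPM in mutant libraries, against 532, 472 and 429 CPM in WT libraries. The groups did not overlap, and the log2 ratio of desma was -3.68 (SE 0.30, adjusted p = 0.0316), and -3.56 without mutant library 2 (adjusted p = 0.00312). The lowest mutant library still held 1547 desma reads, so the transcript was reduced and not absent. The second gene, desmb, held 12, 12 and 4 reads in mutant libraries and 9, 8 and 9 reads in WT libraries. That is at most 0.239 CPM in any library, under the expression filter, so desmb was not tested and its level does not check the genotype labels in this tissue.

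The other intermediate filament and desmosome genes did not take one direction. Over 20 such genes, desma among them, the median log2 difference was 0.02 (0.00 without library 2). At an unadjusted p under 0.05, 2 were higher and 5 lower, beside 8.72 and 4.39% of all genes. Without library 2 these were 4 higher and 3 lower, beside 9.26 and 8.46%. Of the 20 genes desma was the only one that DESeq2 called. The vimentin gene vim, a type III filament gene like desmin that immature muscle and mesenchymal cells express, was at 23.5, 78.4 and 27.7 CPM in mutant and 20.4, 19.8 and 19.3 CPM in WT libraries. Its log2 difference of 1.12 (adjusted p = 0.367) became 0.37 (adjusted p = 0.265) without library 2. The keratin gene krt18b was at 51.4, 56.6 and 33.9 CPM in mutant and 28.4, 31.2 and 25.2 CPM in WT libraries (log2 difference 0.74, adjusted p = 0.312, and 0.60 without library 2), and the desmoplakin gene dspa, which anchors filaments at desmosomes, was at 11.7, 8.84 and 15 CPM in mutant and 18.6, 18.4 and 21.0 CPM in WT libraries (log2 difference -0.71, adjusted p = 0.317, and -0.53 without library 2).

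Across the genome, 6 of 18041 genes tested passed the threshold with all 6 libraries, which is 0.0333%, with 2 higher (0.0111%) and 4 lower (0.0222%) in mutant muscle. An unadjusted p under 0.05 was reached by 13.1% of the genes, with 8.72% higher and 4.39% lower. Counts of list members at this criterion are to be read beside these shares. The groups did not overlap for 26.9% of the genes, with 12.4% higher and 14.5% lower. Without mutant library 2, 251 of 19033 genes passed, which is 1.32%, with 150 higher (0.788%) and the rest lower (0.531%). In that fit an unadjusted p under 0.05 was reached by 17.7%, with 9.26% higher and 8.46% lower. DESeq2 on all 6 libraries called 614 genes (3.4%), with 402 higher (2.23%) and 212 lower (1.18%). All 6 genes of the first fit were among both of these larger sets, and 197 of the 251 genes were also called by DESeq2. No other gene passed the threshold in the fit of all 6 libraries. For any other gene, an adjusted p under 0.05 without mutant library 2 is therefore not a call with all 6.

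Of the 6 genes, myhb, a myosin heavy chain gene, rose the most. Its level was 15.5, 39.6 and 33.1 CPM in mutant libraries and 0.844, 0.910 and 0.941 CPM in WT libraries. Its log2 ratio was 5.03 (SE 0.40, adjusted p = 0.0316), and 4.76 without mutant library 2. The uncharacterised gene si:dkey-251i10.2 rose as well, with 3.44, 5.71 and 3.05 CPM in mutant and 0.115, 0.122 and 0.171 CPM in WT libraries, a log2 difference of 4.88 (SE 0.41, adjusted p = 0.0316). For both genes the lowest mutant library was far above the highest WT library.

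Beside desma, 3 genes with no assigned function fell. The level of zgc:162509 was 2.55, 1.48 and 1.3 CPM in mutant libraries and 16.4, 15.7 and 18.2 CPM in WT libraries, a log2 difference of -3.24 (SE 0.31, adjusted p = 0.0406). That of si:dkey-250k10.1 was 1.34, 1.04 and 1.29 CPM in mutant and 7.06, 6.80 and 6.59 CPM in WT libraries, a log2 difference of -2.48 (SE 0.24, adjusted p = 0.0406). ENSDARG00000115161, which has no symbol, held 1, 1 and 8 reads in mutant libraries and 414, 317 and 390 reads in WT libraries, a log2 difference of -6.42 (SE 0.62, adjusted p = 0.0406). Without mutant library 2 the log2 differences were 4.56 for si:dkey-251i10.2, -3.13 for zgc:162509, -2.37 for si:dkey-250k10.1 and -6.14 for ENSDARG00000115161. Each of the 6 changes kept its direction when any 1 library was left out, but the calls depended on most of the libraries. All 6 genes stayed past the threshold without mutant library 2. Without mutant library 1 only myhb did, and without mutant library 3 or any WT library none did. Thus myhb stayed past the threshold in 2 of the 6 such fits, and each of the other 5 in 1.

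**Figure D2:**
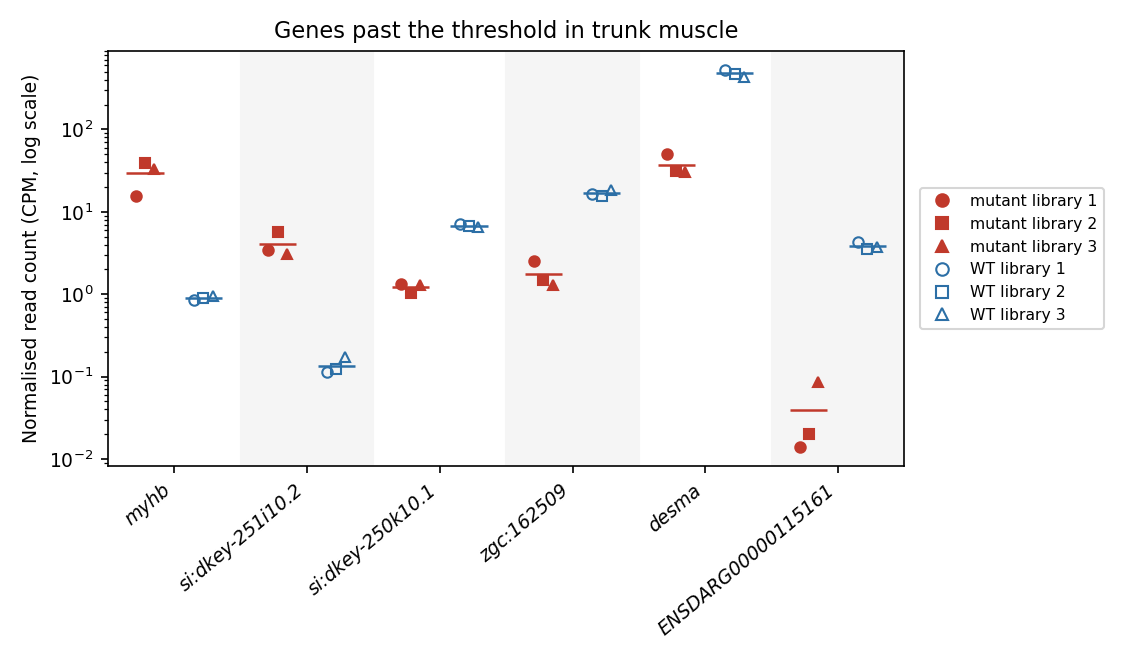
Normalised read counts (CPM, log scale on the vertical axis) of the 6 genes past the threshold in each mutant (filled red) and WT (open blue) trunk library, with horizontal bars at the group means. The mutant points lie above the WT points for myhb and si:dkey-251i10.2 and below them for the other 4 genes, with no overlap.

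Genes of leukocytes, complement and antigen presentation were higher in mutant muscle in groups. Macrophages clear damaged fibres, complement proteins tag cells and debris for uptake, and the class II pathway, with its chaperone CD74, presents their fragments to T cells. Of 27 macrophage genes tested, 14 had an unadjusted p under 0.05 and were higher, and none was lower in that way. The median log2 difference was 0.86, or 0.72 without mutant library 2, beside -0.03 and -0.01 over all genes, of which 8.72% were higher by the same criterion. Of 26 pan-leukocyte genes, 14 were higher by the same criterion, with a median of 0.75 (0.64 without library 2), and of 14 complement genes 9 were, with a median of 0.91 (0.94 without it). DESeq2 called 11, 8 and 6 members of these 3 lists, all of them higher, beside 2.23% higher and 1.18% lower over all genes. The lists share members, such as c1qb in the macrophage and complement lists. In tissue RNA, more cells of a type and more RNA per cell cannot be told apart.

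Among the macrophage genes was irf8, a transcription factor needed for macrophage development in zebrafish. It stood at 16.6, 8.60 and 8.63 CPM in mutant libraries and 2.66, 2.81 and 2.22 CPM in WT libraries, a log2 difference of 2.14 (SE 0.32, adjusted p = 0.0841) that became 2.30 (adjusted p = 0.0102) without library 2. Transcripts of c1qb, a chain of the first complement component that macrophages make, were 6.92, 7.32 and 5.53 CPM in mutant and 2.26, 1.95 and 2.49 CPM in WT libraries (log2 difference 1.56, adjusted p = 0.0857, and 1.48, adjusted p = 0.0159, without library 2). The same pattern was seen in lcp1, the leukocyte plastin, at 27.3, 27.5 and 30.1 CPM in mutant and 16.2, 15.2 and 13.5 CPM in WT libraries (log2 difference 0.92, adjusted p = 0.152, and 0.95, adjusted p = 0.0330, without library 2). The groups did not overlap for any of the 3. Once library 2 was left out, the granulin gene grna rose by 0.97 (adjusted p = 0.0312) and the cathepsin S gene ctss2.2 by 0.94 (adjusted p = 0.0428). Their log2 differences with all 6 libraries were 0.88 and 1.2, both with adjusted p = 0.184.

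Not every macrophage gene followed. The receptor gene csf1ra, which defines the lineage, was at 5.43, 1.78 and 5.08 CPM in mutant and 5.30, 5.54 and 4.49 CPM in WT libraries, with a log2 difference of -0.32 (0.04 without library 2), and cd68 differed by 0.03. In contrast, the transcription factor gene spi1b was higher in every mutant library, at 6.89, 5.71 and 5.98 CPM in mutant and 3.52, 3.74 and 2.53 CPM in WT libraries, with a log2 difference of 0.92 (adjusted p = 0.255). The markers mpeg1.1 and mfap4.1 were not analysed here. The scavenger receptor gene marco was also higher in every mutant library, at 16.2, 32.8 and 14.3 CPM in mutant and 10.5, 9.01 and 8.39 CPM in WT libraries. The summed level of the macrophage list was 285, 359 and 227 CPM in mutant and 187, 185 and 168 CPM in WT libraries, and that of the pan-leukocyte list 516, 624 and 409 CPM in mutant and 264, 268 and 236 CPM in WT libraries. On this scale the sum over all genes tested was also higher in every mutant library.

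The membrane attack gene c6.2 stood at 15.4, 18.8 and 15.1 CPM in mutant and 5.28, 5.29 and 6.28 CPM in WT libraries, a log2 difference of 1.55 (SE 0.20, adjusted p = 0.0626), and of 1.44 (adjusted p = 0.00806) without library 2. The level of c4b, a component of the early classical pathway, was 14.1, 22.2 and 16.1 CPM in mutant and 4.06, 4.61 and 6.31 CPM in WT libraries, a log2 difference of 1.81 (adjusted p = 0.0804), and of 1.60 (adjusted p = 0.0153) without library 2. For both genes the groups were separate. The liver also makes complement, and its markers fabp10a and fgb were at most 0.211 and 0.0638 CPM in any library. The 1 gene of the hepatocyte list above 1 CPM was rbp4, a retinol carrier gene chosen after its values were seen, at 1380, 980 and 390 CPM in mutant and 308, 275 and 403 CPM in WT libraries. The summed level of the keratinocyte list was 680, 1000 and 369 CPM in mutant and 330, 324 and 301 CPM in WT libraries. The part of such other cells in the complement values was not tested.

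In antigen presentation, 15 of 33 genes were higher and 2 lower at an unadjusted p under 0.05, beside 8.72 and 4.39% of all genes. The median log2 difference of the list was 0.63 (0.43 without library 2). The class II invariant chain gene cd74b was at 96.3, 119 and 55.9 CPM in mutant and 31.7, 31.6 and 26.2 CPM in WT libraries, and it rose by 1.35 (adjusted p = 0.0400) without library 2. The class II gene mhc2dab was at 5.75, 4.27 and 4.25 CPM in mutant and 1.14, 1.86 and 1.2 CPM in WT libraries, and it rose by 1.84 (adjusted p = 0.0188) in that fit. The immunoproteasome subunit gene psmb9a, chosen after its values were seen, was at 4.49, 9.42 and 3.37 CPM in mutant and 1.5, 1.40 and 1.35 CPM in WT libraries, and rose by 1.47 (adjusted p = 0.0185) without library 2. In the fit of all 6 libraries cd74b, mhc2dab and psmb9a differed by 1.6, 1.76 and 2.02. The adjusted p there was 0.159, 0.137 and 0.172.

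A class I gene went the other way. The gene mhc1uba held 1617, 599 and 1161 reads in mutant libraries and 6736, 9963 and 10334 reads in WT libraries, or 15.6 ± 5.98 CPM in mutant and 93.0 ± 20.7 CPM in WT libraries (mean ± SD, n = 3 each). The groups were separate, with a log2 difference of -2.58 (SE 0.33, adjusted p = 0.0626) and of -2.41 (adjusted p = 0.0162) without library 2. Class I genes form a family of similar copies, so the counts of single members are uncertain. The other tested class I members, mhc1zba, mhc1zca, mhc1zea, mhc1zja and mhc1lia, had log2 differences of -0.50 to 1.69.

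Lymphocyte and neutrophil genes gave a weaker picture, and the median of interferon-stimulated genes lay near that of all genes. The median over 18 lymphocyte genes was 0.06 (0.13 without library 2), with the T-cell co-receptor gene cd28 at 1.11, 1.84 and 1.13 CPM in mutant and 0.240, 0.244 and 0.152 CPM in WT libraries. The immunoglobulin heavy chain gene ighm was at 1.31, 1.88 and 1.08 CPM in mutant and 4.94, 3.55 and 2.95 CPM in WT libraries. Without library 2, cd28 rose by 2.40 (adjusted p = 0.0218) and ighm fell by 1.67 (adjusted p = 0.0312). Their log2 differences with all 6 libraries were 2.67 (adjusted p = 0.0973) and -1.43 (adjusted p = 0.214). Cytotoxic T-cell and B-cell markers were near 0, with cd8a at most 0.125 CPM and cd79a at most 0.111 CPM in any library. The neutrophil markers lyz and mmp13a were at most 0.0139 and 0.0938 CPM, and the median over the 7 neutrophil genes tested was 0.49 (0.42 without library 2). Over 33 interferon-stimulated genes the median was 0.05 (0.04 without library 2). At an unadjusted p under 0.05, 5 were higher and none lower, beside 8.72 and 4.39% of all genes. DESeq2 called 2 of the 33, both higher, beside 2.23% of all genes. Among the higher genes was parp9, an ADP-ribosyltransferase-family gene, at 18.7, 22.7 and 18.5 CPM in mutant and 7.03, 10.7 and 9.20 CPM in WT libraries. It differed by 1.15 (adjusted p = 0.159) with all 6 libraries and rose by 1.06 (adjusted p = 0.0457) without library 2. The inhibitor gene of NF-kappa-B nfkbiaa and the chemokine gene cxcl12b, chosen after their values were seen, rose by 1.3 and 1.34 in that fit, with adjusted p = 0.0153 and 0.0188. Their adjusted p with all 6 libraries was 0.0857 and 0.165.

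**Figure D3:**
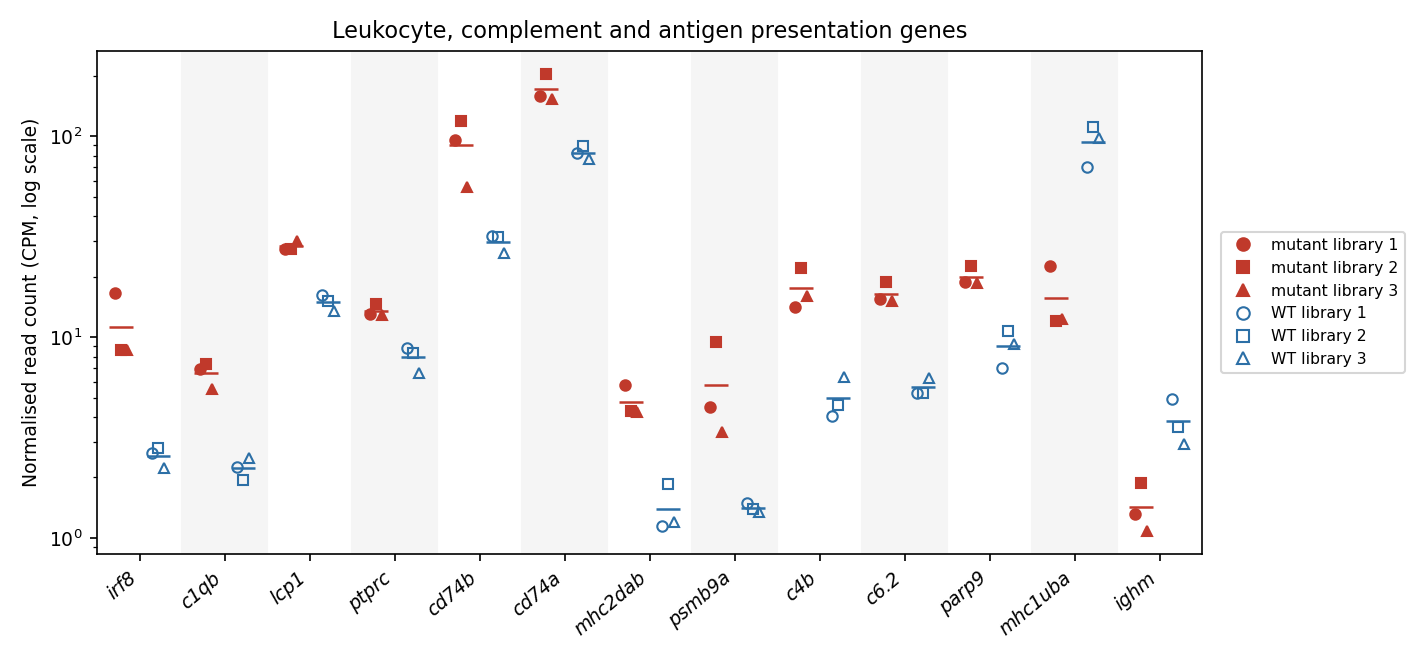
Normalised read counts (CPM, log scale on the vertical axis) of 13 leukocyte, complement, antigen presentation and interferon-stimulated genes in each mutant (filled red) and WT (open blue) trunk library, with horizontal bars at the group means. Every mutant point lies above every WT point for the 11 genes from irf8 to parp9, and below every WT point for mhc1uba and ighm.

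The sarcomere and Z-disc genes, which encode the partners of desmin, had a median near that of all genes. Over 43 Z-disc, titin and M-band genes the median log2 difference was 0.07 (0.12 without library 2). Of these genes 6 were higher and 2 lower at an unadjusted p under 0.05, beside 8.72 and 4.39% of all genes. DESeq2 called 4 higher and 1 lower, beside 2.23 and 1.18%. Without library 2, 4 passed the threshold as higher and 0 as lower, beside 0.788 and 0.531%. Single members differed widely in both directions. The stretch-responsive gene ankrd1a was at 66.9, 26.7 and 64.9 CPM in mutant and 14.2, 8.22 and 4.24 CPM in WT libraries, a log2 difference of 2.57 (SE 0.53, adjusted p = 0.173), and of 2.89 (adjusted p = 0.0703) without library 2. The titin cap gene tcap was at 1640, 2750 and 1440 CPM in mutant and 730, 758 and 772 CPM in WT libraries, a log2 difference of 1.37 (adjusted p = 0.199), and of 1.04 (adjusted p = 0.0719) without library 2. The groups of both genes were separate.

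The Z-disc genes that passed the threshold once library 2 was left out were myoz3a, a calsarcin gene, the alpha-actinin-binding LIM gene pdlim3b, klhl41a and klhl40b. In that order they rose by 1.17, 1.66, 1.15 and 1.33, with adjusted p from 0.0114 to 0.0410. Their log2 differences with all 6 libraries were 1.12, 1.35, 0.69 and 0.88. None passed there, with adjusted p of 0.16, 0.265, 0.583 and 0.516. Of these genes pdlim3b, klhl41a and klhl40b were chosen after their values were seen. The kelch genes KLHL40 and KLHL41 stabilise thin filament proteins in mammals. The level of klhl40b was 24.5, 4.39 and 19.5 CPM in mutant and 10.6, 9.31 and 6.41 CPM in WT libraries. For klhl40b and klhl41a mutant library 2 lay below every WT library, so their rise rests on mutant libraries 1 and 3. In contrast, myoz3a was at 95.2, 70.4 and 61.5 CPM in mutant and 34.7, 33.9 and 36.1 CPM in WT libraries, with all 3 mutant libraries higher.

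Outside the lists and chosen after their values were seen, xirp1 and lmod2b rose in the same fit. The gene xirp1 encodes a Xin repeat protein that binds actin and is found at sites of myofibre damage in mammals. It stood at 285, 167 and 298 CPM in mutant libraries and 89.2, 100 and 90.1 CPM in WT libraries, and rose by 1.65 (SE 0.19, adjusted p = 0.00807) without library 2. Its log2 difference with all 6 libraries was 1.42 (adjusted p = 0.159). The leiomodin gene lmod2b, whose product nucleates actin at thin filament ends, was at 49.6, 13.8 and 44.2 CPM in mutant and 10.1, 11.0 and 18.3 CPM in WT libraries. It rose by 1.84 (adjusted p = 0.0188) without library 2 and by 1.45 (adjusted p = 0.324) with all 6 libraries. The myotilin gene myot, a Z-disc gene mutated in human myofibrillar myopathy, was lower in every mutant library, with 3804, 2096 and 5488 reads in mutant and 9123, 11077 and 11209 reads in WT libraries, at a mean of 51.0 ± 8.43 CPM in mutant libraries (SD, n = 3). Its log2 difference was -1.08 (adjusted p = 0.165), and -0.96 (adjusted p = 0.0624) without library 2.

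Costamere, junction and calcium-handling lists had medians below that of all genes. The median was -0.36 over 38 costamere and dystrophin complex genes and -0.11 without library 2. Of these genes 3 were higher and 1 lower at an unadjusted p under 0.05, beside 8.72 and 4.39% of all genes. The library medians of the costamere list over the WT mean were -0.16, -0.62 and -0.05, with mutant library 2 the lowest. The annexin genes anxa1a and anxa2a, whose products bind injured membranes, were higher in every mutant library, with anxa2a at 244, 310 and 158 CPM in mutant and 129, 120 and 85.3 CPM in WT libraries (log2 difference 1.09, adjusted p = 0.269, and 0.86 without library 2). Of 21 neuromuscular junction genes, 1 was higher and 1 lower at an unadjusted p under 0.05, and the median was -0.37 (-0.10 without library 2). The library medians were -0.04, -1.05 and -0.04, so mutant library 2 lay far below the others. By overlap, 8 of these 21 genes were lower in every mutant library and 1 was higher, beside 14.5 and 12.4% of all genes. The acetylcholinesterase gene ache was at 90.5, 128 and 98.8 CPM in mutant and 178, 166 and 147 CPM in WT libraries (log2 difference -0.63, adjusted p = 0.327, and -0.79 without library 2). The gene chrng encodes the fetal-type acetylcholine receptor subunit and stood at 4.63, 4.75 and 4.30 CPM in mutant and 2.36, 2.72 and 1.99 CPM in WT libraries (log2 difference 0.95, adjusted p = 0.235, and 0.92 without library 2). Over 28 genes of excitation-contraction coupling the median was -0.25 (-0.12 without library 2), with library medians of -0.28, -0.42 and -0.03. The gene stim1b, a calcium sensor of the reticulum, fell by 1.18 (adjusted p = 0.0464) without library 2. Its log2 difference with all 6 libraries was -1.56 (adjusted p = 0.295).

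Among fibre-type genes, those of fast fibres were mostly higher, while single myosin genes and other single members were lower. Of 29 fast fibre genes 22 had a positive log2 difference. At an unadjusted p under 0.05, 8 were higher and 2 lower, beside 8.72 and 4.39% of all genes. The median of the fast list was 0.63 (0.40 without library 2), with library medians of 0.66, 0.96 and 0.05, so mutant library 3 lay near the WT mean. By overlap, 4 fast fibre genes were higher and 3 lower in every mutant library, beside 12.4 and 14.5% of all genes. Creatine kinase gene ckmb was at 85000, 81800 and 39000 CPM in mutant and 28400, 20900 and 36200 CPM in WT libraries. The fibre markers tnnt3a and mybpc2b were lower in every mutant library, with log2 differences of -1.14 (adjusted p = 0.336) and -0.53 (adjusted p = 0.493). Without library 2 these were -1.41 and -0.36. Of 35 slow fibre and cardiac-type genes 24 had a positive log2 difference. At an unadjusted p under 0.05, 5 were higher and 3 lower, beside the same 8.72 and 4.39%. The median of the slow list was 0.32 (0.10 without library 2). The medians of the fast and the slow list lay above that of all genes in every setting tried. The slow myosin gene smyhc1 was at 92.4, 76.3 and 186 CPM in mutant and 367, 489 and 379 CPM in WT libraries, a log2 difference of -1.80 (SE 0.38, adjusted p = 0.181), and of -1.56 (adjusted p = 0.0663) without library 2. The slow myosin gene smyhc2 was at 1270, 2550 and 2200 CPM in mutant and 1430, 2100 and 2540 CPM in WT libraries, with overlapping groups. The fast myosin gene myha was at 44.9, 125 and 18.2 CPM in mutant and 638, 209 and 299 CPM in WT libraries, a log2 difference of -2.61 (adjusted p = 0.275), and of -3.59 (adjusted p = 0.0919) without library 2. Myosin heavy chain genes are near-identical copies and reads that fit several places were left out of the gene counts, so values of single members, myhb included, are uncertain.

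Among small heat shock proteins, which keep unfolding Z-disc and filament proteins soluble, several were higher. The summed level of the chaperone list was 5920, 5360 and 5290 CPM in mutant and 4000, 3970 and 4320 CPM in WT libraries. On this scale the sum over all genes tested was also higher in every mutant library. The median log2 difference over 41 chaperone genes was 0.37 (0.31 without library 2). The gene hspb1 was at 527, 564 and 495 CPM in mutant and 223, 204 and 274 CPM in WT libraries, a log2 difference of 1.18 (SE 0.22, adjusted p = 0.159), and of 1.13 (adjusted p = 0.0515) without library 2. Its relative hspb9l, outside the list and chosen after its values were seen, was at 630, 530 and 350 CPM in mutant and 183, 149 and 135 CPM in WT libraries. It rose by 1.66 (adjusted p = 0.0353) without library 2 and by 1.69 (adjusted p = 0.133) with all 6 libraries. The muscle small heat shock gene hspb7, also chosen after its values were seen, was at 83.8, 16.7 and 83.0 CPM in mutant and 35.0, 45.3 and 42.2 CPM in WT libraries, so library 2 lay below WT while the other 2 lay above. It rose by 1.03 (adjusted p = 0.0387) without that library and by 0.58 (adjusted p = 0.624) with all 6 libraries. The mitochondrial chaperone gene hspa9 was lower, at 110, 69.1 and 144 CPM in mutant and 157, 193 and 215 CPM in WT libraries (log2 difference -0.81, adjusted p = 0.347, and -0.57 without library 2).

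Several regulators of myogenic differentiation were higher in mutant muscle, while the satellite cell markers overlapped between the groups. The summed level of the list was 925, 931 and 921 CPM in mutant and 804, 842 and 828 CPM in WT libraries. On this scale the sum over all genes tested was also higher in every mutant library. Of 32 genes 7 were higher and none lower at an unadjusted p under 0.05, beside 8.72 and 4.39% of all genes. The differentiation factor gene myog was at 34.9, 15.1 and 24.3 CPM in mutant and 13, 9.58 and 7.01 CPM in WT libraries, a log2 difference of 1.33 (adjusted p = 0.264), and of 1.59 (adjusted p = 0.0390) without library 2. The determination factor gene myod1 was at 21.4, 42.2 and 21.0 CPM in mutant and 12.6, 11.7 and 8.88 CPM in WT libraries (log2 difference 1.35, adjusted p = 0.217), and the difference was 0.94 (adjusted p = 0.0520) without library 2. The fusion gene mymk was at 0.459, 0.459 and 0.744 CPM in mutant and 0.260, 0.222 and 0.114 CPM in WT libraries. The satellite cell genes pax7a and pax7b were at most 1.07 CPM in any library. The median of the list was 0.10, and it lay below the median of all genes under some alternatives.

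**Figure D4:**
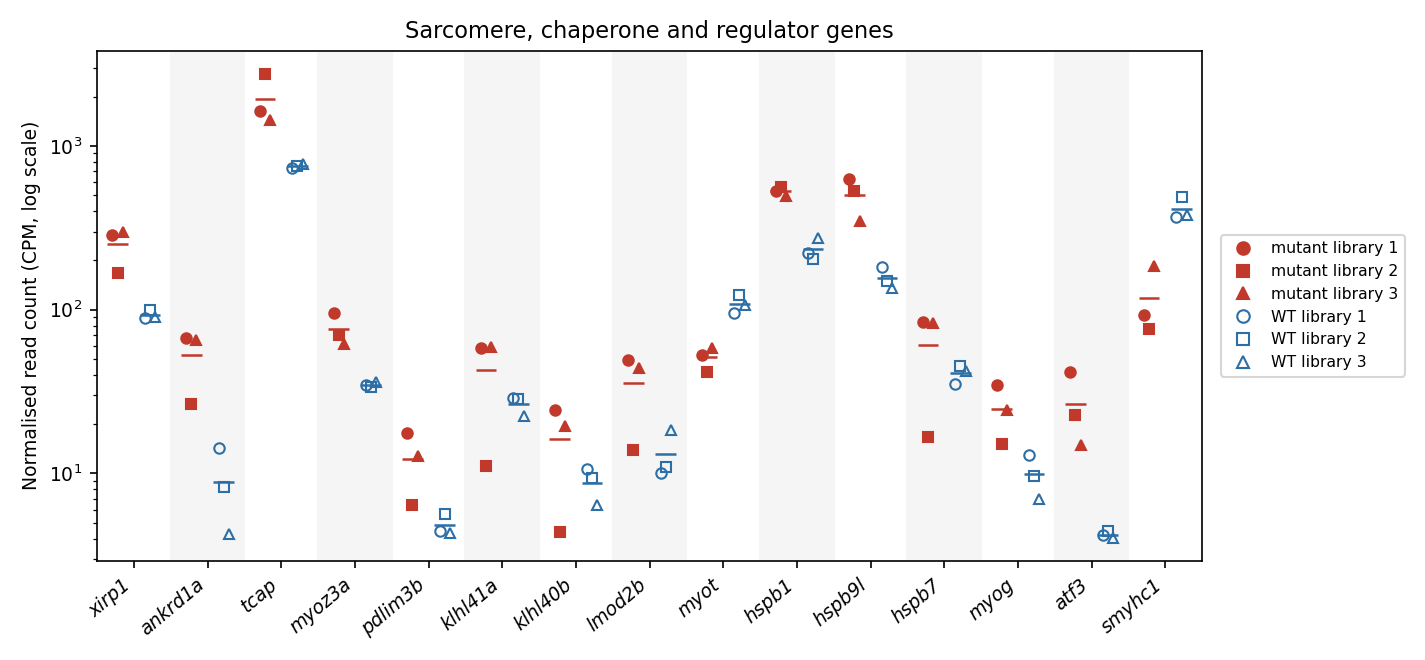
Normalised read counts (CPM, log scale on the vertical axis) of 15 sarcomere, chaperone and regulator genes in each mutant (filled red) and WT (open blue) trunk library, with horizontal bars at the group means. For klhl41a, klhl40b and hspb7 the square of mutant library 2 lies below the WT points while the other 2 mutant points lie above them, and myot and smyhc1 are lower in all 3 mutant libraries.

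Immediate early genes tended to higher values. Of 37 immediate early genes, which cells induce within minutes of stimulation, 13 were higher and 1 lower at an unadjusted p under 0.05, beside 8.72 and 4.39% of all genes. The median log2 difference of the list was 0.37 (0.56 without library 2), with library medians of 0.60, 0.43 and 0.30. The gene fosab stood at 24.6, 26.5 and 20.5 CPM in mutant and 8.80, 5.14 and 9.84 CPM in WT libraries, and rose by 1.51 (adjusted p = 0.0400) without library 2. Its partner gene junba was at 13.5, 10.2 and 8.70 CPM in mutant and 4.38, 3.58 and 5.05 CPM in WT libraries, and rose by 1.36 (adjusted p = 0.0366) in that fit. In the fit of all 6 libraries fosab differed by 1.59 (adjusted p = 0.14) and junba by 1.32 (adjusted p = 0.159). Of the other members, egr1, chosen after its values were seen, was at 10.5, 3.77 and 13.5 CPM in mutant and 6.18, 4.85 and 5.35 CPM in WT libraries, and nr4a1 was lower, at 134, 141 and 146 CPM in mutant and 214, 190 and 193 CPM in WT libraries.

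The stress factor gene atf3 gave one of the larger differences. It was at 41.6, 22.7 and 14.9 CPM in mutant and 4.18, 4.42 and 4.06 CPM in WT libraries, a log2 difference of 2.65 (SE 0.38, adjusted p = 0.0801), and of 2.75 (adjusted p = 0.0476) without library 2. Its list as a whole lay nearer the background. The median over 36 genes of the unfolded protein and integrated stress response was 0.12 (0.17 without library 2). Of these genes 3 were higher and 1 lower at an unadjusted p under 0.05, beside 8.72 and 4.39% of all genes. The other higher ones were cebpb (log2 difference 1.24, adjusted p = 0.228, and 1.05 without library 2) and xbp1 (0.82, adjusted p = 0.326, and 0.84 without library 2), both with separate groups. The amino acid response gene asns was lower, at 4.58, 2.29 and 4.44 CPM in mutant and 8.02, 11.5 and 4.75 CPM in WT libraries. Among 32 p53 targets 5 were higher and 2 lower by that criterion, with a median of 0.28 (0.14 without library 2). The p53 target phlda3, which restrains AKT in mammals, was at 8.85, 9.90 and 7.35 CPM in mutant and 2.2, 1.59 and 1.40 CPM in WT libraries, a log2 difference of 2.33 (SE 0.27, adjusted p = 0.0614), and of 2.23 (adjusted p = 0.00612) without library 2. The cell-cycle inhibitor cdkn1a, another p53 target, overlapped between the groups with a log2 difference of 0.29.

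In protein degradation, proteasome genes were higher together by small amounts. Of 41 genes, 38 had a positive log2 difference and 17 were higher at an unadjusted p under 0.05, beside 8.72% of all genes. The median of the list was 0.57 (0.30 without library 2). The library medians of 0.40, 0.93 and 0.20 show library 2 as the highest and library 3 as the lowest. The regulator subunit psme2 was at 44.8, 68.7 and 42.1 CPM in mutant and 25.2, 28.7 and 26.2 CPM in WT libraries (log2 difference 0.96, adjusted p = 0.228, and 0.71 without library 2). Among 37 lysosomal genes 13 were higher and 2 lower at an unadjusted p under 0.05, beside 8.72 and 4.39% of all genes. The median of the lysosomal list was 0.36 (0.24 without library 2). Several lysosomal genes, such as grna, ctss2.1, ctss2.2 and laptm5, are also expressed by macrophages and stand in the immune lists. The muscle atrophy ligase gene fbxo32 averaged 115 ± 14.2 CPM in mutant libraries (SD, n = 3), within the WT values of 34.2, 84.8 and 215 CPM. Autophagy genes had a median of 0.15, and of -0.02 without library 2.

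Ribosomal and respiratory chain transcripts were unevenly spread over the mutant libraries. All 74 cytosolic ribosome genes tested had a positive log2 difference, with a median of 0.98 (0.44 without library 2). The library medians over the WT mean were 0.72, 1.61 and 0.04, and the summed level was 56000, 92200 and 32400 CPM in mutant and 33500, 29700 and 28800 CPM in WT libraries. Mutant library 3 was thus close to WT and library 2 far above it. Complex I gave 36 positive differences of 37, with a median of 0.45 (0.20 without library 2) and library medians of 0.41, 0.83 and -0.09. In complexes II to IV the median was 0.34 (0.20 without library 2), with library medians of 0.33, 0.68 and -0.16. The ATP synthase list of 22 genes also held genes that encode no subunit of it, such as vdac3, slc25a3a and atp5if1a. Its median was 0.46 (0.39 without library 2), with library medians of 0.60, 0.85 and 0.08. The 13 genes encoded in mitochondria had a median of 0.20 (0.09 without library 2). The 1 respiratory chain gene that passed the threshold without library 2 was cox6b1, a complex IV subunit gene, at 32.1, 57.5 and 37.7 CPM in mutant and 10.5, 11.2 and 8.40 CPM in WT libraries. Its log2 difference was 2.08 (SE 0.27, adjusted p = 0.0626), and it rose by 1.80 (adjusted p = 0.00516) without library 2.

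Metabolic lists had medians near that of all genes, but single members differed. Over 55 genes of glycolysis, glycogen and phosphocreatine the median was 0.07 (0.12 without library 2). At an unadjusted p under 0.05, 10 were higher and 1 lower, beside 8.72 and 4.39% of all genes. DESeq2 called 6 of the 55 genes higher and 1 lower, beside 2.23 and 1.18% of all genes. The summed level of the list was 203000, 200000 and 105000 CPM in mutant and 78900, 64100 and 100000 CPM in WT libraries, so libraries 1 and 2 were far above WT and library 3 just above it. All genes tested also summed higher on this scale, to 1270000, 1510000 and 891000 CPM in mutant and 826000, 825000 and 858000 CPM in WT libraries. The enolase gene eno3 was at 10200, 13200 and 4360 CPM in mutant and 3280, 3140 and 3660 CPM in WT libraries (log2 difference 1.46, adjusted p = 0.281, and 1.12 without library 2). The AMP deaminase gene ampd1 was at 1180, 1500 and 1060 CPM in mutant and 592, 552 and 703 CPM in WT libraries (log2 difference 1.02, adjusted p = 0.228, and 0.86 without library 2). The median was 0.00 for both the citrate cycle (0.06 without library 2) and fatty acid oxidation (0.12 without it). Of 41 fatty acid oxidation genes 2 were higher and 5 lower at an unadjusted p under 0.05, beside 8.72 and 4.39% of all genes. Among the lower ones were cpt1ab, which controls fatty acid entry into mitochondria, at 69.6, 45.5 and 86.9 CPM in mutant and 123, 118 and 140 CPM in WT libraries, and its regulator gene pparab at 1.89, 0.319 and 1.81 CPM in mutant and 4.4, 5.90 and 3.42 CPM in WT libraries. The glycogen targeting gene ppp1r3aa was at 13.2, 14.8 and 21.0 CPM in mutant and 31.3, 35.1 and 41.7 CPM in WT libraries (log2 difference -1.14, adjusted p = 0.173, and -1.08 without library 2). In the oxidative stress list, with a median of 0.50 (0.25 without library 2), the thioredoxin gene txnb was at 14.8, 18.5 and 22.1 CPM in mutant and 1.75, 0.499 and 0.447 CPM in WT libraries, a log2 difference of 4.36 (SE 0.59, adjusted p = 0.0684, and 0.0858 without library 2). The lipid peroxide reductase gene gpx4a averaged 59.6 ± 21.6 CPM in mutant and 22.5 ± 2.69 CPM in WT libraries (SD, n = 3 each).

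Vessel genes tended to lower values, while matrix genes did so less clearly. Of 28 endothelial genes 7 were lower and none higher at an unadjusted p under 0.05, beside 4.39 and 8.72% of all genes. The median of the list was -0.31 (-0.22 without library 2), with a summed level of 613, 591 and 614 CPM in mutant and 661, 844 and 742 CPM in WT libraries. DESeq2 called none of the endothelial genes. The endothelial cadherin gene cdh5 held 3944, 3520 and 5693 reads in mutant and 8442, 10931 and 9777 reads in WT libraries, or 61.9 ± 7.76 CPM in mutant libraries (SD, n = 3), a log2 difference of -0.70 (adjusted p = 0.295, and -0.80 without library 2), whereas the receptor gene kdrl overlapped between the groups. Of 61 collagen and matrix genes 2 were higher and 5 lower at an unadjusted p under 0.05, with a median of -0.20 (-0.14 without library 2). By overlap, 8 of the 61 were lower in every mutant library and 2 higher, beside 14.5 and 12.4% of all genes. DESeq2 called 3 lower and none higher, beside 1.18 and 2.23%. The basement membrane collagen gene col18a1a was at 6.90, 6.09 and 8.36 CPM in mutant and 15.4, 20.5 and 13.5 CPM in WT libraries (log2 difference -1.21, adjusted p = 0.160, and 0.0536 without library 2). In contrast, thbs4a was higher in every mutant library, at 28.6, 33.1 and 29.1 CPM in mutant and 21.3, 14.0 and 14.7 CPM in WT libraries. Its log2 difference was 0.86 (adjusted p = 0.235), and 0.79 without library 2. Fibrillar collagen gene col1a1a overlapped between the groups, at 145 ± 28.9 CPM in mutant and 229 ± 97.0 CPM in WT libraries (SD, n = 3 each). The matricellular gene THBS1, chosen after its values were seen and listed under a human-style symbol, was at 78.9, 52.7 and 70.4 CPM in mutant and 36.3, 27.6 and 30.3 CPM in WT libraries. It rose by 1.25 (adjusted p = 0.0188) without library 2 and by 1.1 (adjusted p = 0.171) with all 6 libraries.

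Markers of other tissues varied between single libraries. Several neuronal genes were highest in WT library 1, as in the neurofilament gene nefma at 0.320, 0.200 and 0.351 CPM in mutant and 13.9, 0.744 and 0.513 CPM in WT libraries. The median over the 24 neuron and Schwann cell genes was -0.66 (-0.85 without library 2) and did not lie below that of all genes in every alternative. Their summed level was 579, 821 and 472 CPM in mutant and 719, 561 and 445 CPM in WT libraries, with no separation. Epidermal genes were uneven in mutant libraries, with krt94 at 277, 536 and 162 CPM in mutant and 136, 160 and 116 CPM in WT libraries. Over 35 cholesterol and lipid synthesis genes the median was -0.38 (-0.34 without library 2). At an unadjusted p under 0.05, 4 were higher and 4 lower, beside 8.72 and 4.39% of all genes. By overlap, 14 of the 35 were lower in every mutant library and 5 higher, beside 14.5 and 12.4% of all genes. The sterol sensor gene insig1 was at 0.863, 0.938 and 1.37 CPM in mutant and 2.94, 3.71 and 3.19 CPM in WT libraries, and fell by 1.54 (adjusted p = 0.0360) without library 2. In the same fit the desaturase gene scd rose by 1.33 (adjusted p = 0.0400). Over all 6 libraries insig1 differed by -1.63 (adjusted p = 0.159) and scd by 1.05 (adjusted p = 0.327).

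**Figure D5:**
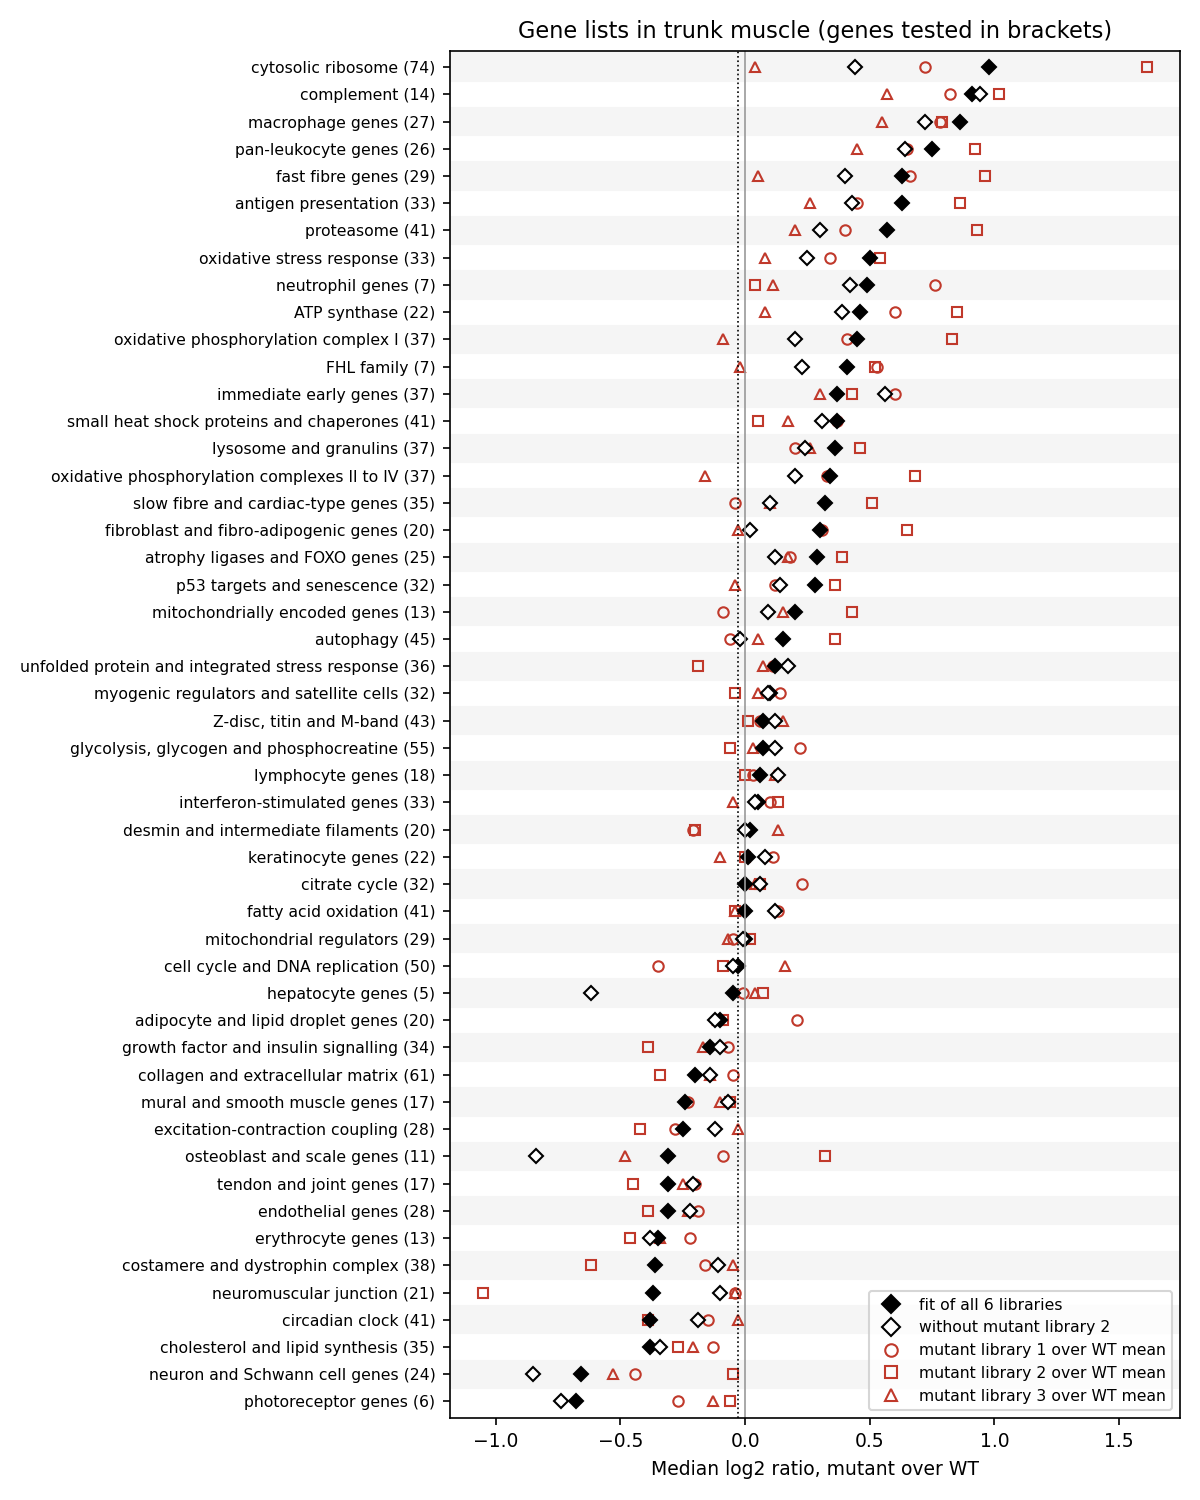
Median log2 ratio of mutant over WT (horizontal axis) for 50 gene lists, with the number of genes tested in brackets. Filled diamonds are the fit of all 6 libraries, open diamonds the fit without mutant library 2, red open symbols each mutant library over the WT mean and the dotted line the median of all genes. Complement, macrophage and pan-leukocyte lists lie to the right in all 3 mutant libraries, while the ribosomal list ranges from 0.04 in library 3 to 1.61 in library 2.

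Some transcripts were present in WT muscle and at or near 0 in every mutant library. The intelectin gene ITLN1, which encodes a lectin that binds microbial sugars, held no read in the mutant libraries and 116, 149 and 157 reads in WT libraries, so it was at least 32.6-fold lower (against a floor of 3 reads per library). The lipid transporter gene abca12 held 1, 0 and 4 reads in mutant and 185, 204 and 246 reads in WT libraries and fell by 6.13 (adjusted p = 0.00197) without library 2. The tryptophan pathway gene acmsd was at 0, 0 and 0.0319 CPM in mutant and 1.45, 1.49 and 2.24 CPM in WT libraries, and passed the threshold in the same fit (adjusted p = 0.00612). So did the cadherin gene cdh29, at 0.0696, 0.120 and 0.0106 CPM in mutant and 1.98, 1.53 and 1.35 CPM in WT libraries, and acbd4, an acyl-CoA-binding gene, at 0.0557, 0.180 and 0.0425 CPM in mutant and 1.32, 1.63 and 1.47 CPM in WT libraries. For abca12, acmsd, cdh29 and acbd4 the adjusted p with all 6 libraries was 0.0563, 0.0626, 0.0861 and 0.0804. The transcription factor gene pax6b, chosen after its values were seen, was at 0, 0.0200 and 0.0213 CPM in mutant and 0.813, 0.633 and 1.09 CPM in WT libraries.

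The reverse was found for si:zfos-1897c11.1, which held 74, 76 and 53 reads in mutant libraries and 0, 0 and 1 read in WT libraries, and for zgc:198329, at 1.36, 0.798 and 0.883 CPM in mutant and 0.0104, 0 and 0 CPM in WT libraries. Both passed the threshold without library 2, with adjusted p = 0.00806 and 0.00401, but not with all 6 libraries (0.0614 and 0.0563). The other large positive log2 differences were 5.49 for si:ch211-66i8.3, 5.35 for the granulin gene grna.2, 4.91 for tmem186, 4.67 for si:dkey-217f16.3 and 4.23 for si:dkey-7i4.24. Among the other large negative ones were -5.23 for si:dkeyp-52c3.7 and -3.48 for epd. The adjusted p of these genes was from 0.0614 to 0.184. Reads of grna.2 were uneven, at 268, 43 and 22 in mutant libraries and 2, 5 and 4 in WT libraries. A few genes split the WT libraries instead, such as the matrilin gene matn3a at 0.111, 0 and 0.0851 CPM in mutant and 8.18, 7.26 and 0.181 CPM in WT libraries, so its log2 difference of -6.18 (adjusted p = 0.216) rests on WT libraries 1 and 2. The same holds for si:dkeyp-71f10.5, with a log2 difference of -5.72 (adjusted p = 0.244). It held 0, 9 and 12 reads in mutant and 815, 653 and 23 reads in WT libraries.

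Several other genes rose or fell without library 2 with all 3 mutant libraries on one side of WT, and they were chosen after their values were seen. Over all 6 libraries the adjusted p of those named here was from 0.0563 to 0.173. The thyroid-hormone-binding crystallin gene crym was at 7.29, 4.91 and 4.67 CPM in mutant and 0.708, 0.400 and 0.675 CPM in WT libraries, and rose by 3.33 (adjusted p = 0.00375). The troponin gene TNNI2 was at 5.61, 8.12 and 5.03 CPM in mutant and 1.36, 1.04 and 0.818 CPM in WT libraries, and rose by 2.31 (adjusted p = 0.00612). The gene chrd, which encodes the BMP antagonist chordin, was at 5.27, 4.91 and 6.98 CPM in mutant and 1.03, 1.04 and 1.83 CPM in WT libraries, and rose by 2.23 (adjusted p = 0.0144). The tubulin gene tubb6, which regenerating mouse fibres express, rose by 2.23 (adjusted p = 0.0119). The peroxisomal ether-lipid gene gnpat was at 1.48, 0.339 and 1.80 CPM in mutant and 7.30, 7.76 and 8.21 CPM in WT libraries, and fell by 2.24 (adjusted p = 0.00337).

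Genes next to the desmin loci were compared with all genes. Of 27 tested genes among the 25 neighbours on each side of desma, in the order of the RefSeq annotation GRCz12tu, 5 had an unadjusted p under 0.05 (18.5%) and 11 did not overlap (40.7%), beside 13.1 and 26.9% over all genes. Of 26 tested neighbours of desmb, 6 had an unadjusted p under 0.05 (23.1%) and 4 did not overlap (15.4%). In this order no neighbour of desma passed the threshold without library 2, while 2 neighbours of desmb did, dytn and casp20. Over all genes tested in that fit 1.32% passed. In the order of the files, 5 of 33 tested neighbours of desma (15.2%) had an unadjusted p under 0.05, and 42.4% did not overlap. For desmb these were 9 of 32 (28.1%) and 21.9%. Without library 2, 0 and 4 neighbours in file order passed the threshold, beside the same 1.32% of all genes. The dystrotelin gene dytn held at most 0.0278 CPM in a mutant library and 0.365, 0.377 and 0.523 CPM in WT libraries. Near desma, 7 uncharacterised genes that lie 10 to 17 positions from it in the order of the files, noticed after their values were seen, were highest in mutant library 3. Their levels there were 1.74 to 14.6 CPM, as in zgc:153499 at 0.0278, 0.0399 and 6.84 CPM in mutant and 0.302, 0.0333 and 0.181 CPM in WT libraries.

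The FHL genes, LIM-domain cofactors of which fhl2b is named in the study's title, were mostly within the spread of the libraries in trunk muscle. Of these genes fhl2b is also among the tested neighbours of desmb, 13 positions from it in the order of the files. The level of fhl2b was 6.75, 6.42 and 4.24 CPM in mutant and 3.78, 5.18 and 4.15 CPM in WT libraries, a log2 difference of 0.41 (SE 0.27, adjusted p = 0.524). This difference was -0.13 when libraries were scaled by their totals alone. The median of all genes moved from -0.03 to -0.5 under that scaling, so fhl2b lay above it with either scaling. The gene fhl1a, whose human counterpart is mutated in myopathies with protein inclusions, stood at 46.6, 39.2 and 29.3 CPM in mutant and 15.2, 19.2 and 20.2 CPM in WT libraries, with separate groups and a log2 difference of 1.08 (SE 0.23, adjusted p = 0.184, and 0.0681 without library 2). The genotype effect on desma was -3.68 in trunk and -5.26 in extraocular muscle (difference 1.57, SE 0.56, adjusted p = 0.934 for the interaction). That on myhb was 5.03 in trunk and 0.39 in extraocular muscle (difference 4.65, SE 0.72, adjusted p = 0.0650).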

How the data were processed

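The authors deposited raw counts of reads per gene for each library, as the aligner STAR writes them, with separate columns for reads counted without regard to strand, on the gene's strand and on the opposite strand, per the file layout. The submitters' processing notes name STAR, DESeq2 and the build GRCz11, and versions and annotation are not given in the sources used here. The gene-strand counts of the 6 trunk libraries, 96.65 to 97.24% of the stranded reads, were used. The 4 lines that name no gene were left out of the totals and the fits: unmapped reads were 9.81 to 14.82% and multimapping reads 8.68 to 12.51% of a library.

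Symbols came from a gene name table, 29201 of 32520 genes having one, and 10901 human-style symbols were resolved to zebrafish symbols through neighbouring genes in RefSeq GRCz12tu.

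Mutant and WT were compared with edgeR 4.0.16 in R 4.3.3 (TMM, default expression filter with minimum count 10 and total 15, robust quasi-likelihood fit) with Benjamini-Hochberg adjustment over all genes tested, including every adjusted p without mutant library 2. SE is the absolute log2 ratio divided by the root of F. Alternatives used DESeq2 1.42.0 and limma 3.58.1. The scripts were tested on simulated data. For the library medians, a pseudocount of 0.5 CPM was added before the log2 ratio to the WT mean. Counting error is small at this depth for all but the lowest genes, and the spread between libraries limits the precision.

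The genes named were drawn from desma, desmb and the FHL genes, every gene past the threshold, the 10 largest differences in each direction among genes with a symbol, an unadjusted p under 0.01, no overlap and at least 1 CPM, and up to 4 members of each of 50 lists by smallest p among those with p under 0.05 and no overlap, besides the cell type markers. Chosen after their values were seen were also cd68, cdkn1a, col1a1a, fbxo32, hspa9, laptm5, nr4a1, smyhc2, pax7a, pax7b and the class I genes beside mhc1uba, besides those so named in the text. The comparison and the lists were chosen with earlier results of these data known, and lists share members. The labels do not say whether replicate numbers pair the libraries. The deviations of same-numbered libraries from their group means correlated at -0.083, 0.063 and 0.002, and those of differently numbered libraries at -0.235 to 0.196. With so few libraries these values cannot decide whether the numbers pair them.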

Additional observations from a re-analysis of the deposited data

Results flagged for a closer look

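The genotype effect on prg4a, the lubricin gene of joints and tendons, differed between the tissues: it was 1.13 in trunk and -3.27 in extraocular muscle on the log2 scale, a difference of 4.4 (SE 0.48, adjusted p = 0.00308 for the interaction in edgeR over 20041 genes). In trunk it stood at 1.22, 1.26 and 0.978 CPM in mutant and 0.479, 0.533 and 0.561 CPM in WT libraries, with adjusted p = 0.281. In extraocular muscle it was at 0.928, 1.46 and 1.17 CPM in mutant and 11.6, 13.3 and 9.32 CPM in WT libraries, with adjusted p = 0.000436. The trunk levels of both groups and the mutant extraocular level were thus low beside the WT extraocular level.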

How the results depend on the processing

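The number of genes past the threshold, 6 with all libraries, was 614 with DESeq2, 68 with edgeR's newer quasi-likelihood method, 52 without a filter on low counts, 52 when all 12 libraries shared 1 fit, 14 with unstranded counts, and 3 each with library totals alone and with limma-voom. It stayed at 6 with DESeq2's size factors and without robust dispersions, and was 8 with a filter of 1 CPM. Leaving out 1 library gave 0 to 251 genes, namely 1 when mutant library 1 was omitted, 251 when mutant library 2 was, and 0 when mutant library 3 or any WT library was, where 3733, 1261, 1106 and 1529 genes still had an unadjusted p under 0.05. Higher genes made up 33.3% of the calls in the first fit, 65.5% with DESeq2, 61.8% with the newer method, 59.6% without a filter and 59.8% without mutant library 2. With the replicate block 0 genes passed, and 1538 reached p under 0.05 unadjusted. Whether the replicate numbers pair the libraries is not known. Scaling by library totals alone moved the median of all genes from -0.03 to -0.5. Under it fhl2b, fhl2a and fhl3b turned to -0.13, 0.0 and -0.35, while fhl1b, at -0.16, ranged from -0.44 to 0.1 when 1 library was left out. Of 199 genes examined the others kept their direction in all these settings. The lists of intermediate filaments, myogenic regulators, citrate cycle, fatty acid oxidation, mitochondrial regulators, lymphocyte, osteoblast, neuron, hepatocyte, adipocyte and cell cycle genes did not stay on 1 side of the median of all genes. The cause of these differences was not tested.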

Other observations

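A few gene groups not described above held single members that stood apart. Among 20 fibroblast genes, the surface marker gene thy1 was at 1.86, 4.21 and 3.12 CPM in mutant and 0.760, 0.799 and 0.780 CPM in WT libraries, and rose by 1.68 (adjusted p = 0.0311) without mutant library 2, while the list median was 0.30 and 0.02 without that library. The red cell anion exchanger gene slc4a1a was at 10.1, 11.4 and 14.1 CPM in mutant and 27.8, 31.3 and 17.4 CPM in WT libraries (log2 difference -1.10, adjusted p = 0.221), and the median over 13 erythrocyte genes was -0.35. The lipid carrier gene apoda.1 was at 6.67, 12.3 and 5.51 CPM in mutant and 1.89, 1.72 and 3.2 CPM in WT libraries (log2 difference 1.84, adjusted p = 0.188). Of 50 cell cycle genes 1 was higher and none lower at an unadjusted p under 0.05, beside 8.72 and 4.39% of all genes. The list median was -0.03. Over 41 circadian clock genes it was -0.38, and -0.19 without library 2. The iron uptake receptor gene tfr1a, chosen after its values were seen, was at 16.8, 0.778 and 19.4 CPM in mutant and 66.4, 55.6 and 34.3 CPM in WT libraries, and fell by 1.52 (adjusted p = 0.0468) without library 2. Its log2 difference with all 6 libraries was -2.08 (adjusted p = 0.399).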
